A study of Mus musculus with 13 samples.

Results

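The transcripts described here are those of 10 mouse genes of lipoprotein assembly, namely the apolipoproteins Apob, Apoa1, Apoa2, Apoa4, Apoa5, Apoc2, Apoc3, Apoe and Apom and the lipid transfer protein gene Mttp. The members were chosen by name: every probe on the array whose gene name in the scanner files is one of these symbols was used. That gave 13 of the 39429 probes that are not controls, and all 13 probes, for 10 of 10 genes, passed the filter that left 19531 genes for testing. The RNA came from livers of female mice of strain C57BL6 aged 12 weeks, and 13 samples were read with 1 dye on 13 Agilent mouse arrays that lay on 5 slides. The labels give 5 biological replicates on the diet written HFHS with vehicle, 5 on the diet written ST with pollutants, and 3 on the diet written ST with vehicle. The series text calls ST a standard diet and HFHS a high-fat diet, and it describes the pollutants as a mixture of 4 compounds, which the labels do not name. That text can be read as placing the pollutants in the high-fat diet, whereas all 5 pollutant samples are labelled ST, and the sample labels were followed. The vehicle, the doses, the length of feeding and the composition of the diets are not given in the sources used here.

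The liver releases triglyceride in very low density lipoprotein (VLDL), a particle built on a single molecule of apolipoprotein B. Microsomal triglyceride transfer protein, the product of Mttp, loads lipid onto that protein in the endoplasmic reticulum. The smaller exchangeable apolipoproteins join the particle or circulate on high density lipoprotein (HDL), where they serve as enzyme cofactors, enzyme inhibitors or ligands of receptors.

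A value below is the log2 of an array's processed signal minus the log2 of that array's 75th percentile, so 1 unit is a doubling of signal relative to the rest of the array. Signals of different probes were not set against each other as transcript levels, because each probe has its own response. Unless another setting is named, differences come from a single limma model of the 3 groups over 13 arrays, with no term for the slide. Errors of differences are standard errors of that model, and adjusted p-values are two-sided and Benjamini-Hochberg adjusted over 19531 genes. Calls required that adjusted p to be under 0.05.

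The 75th percentile of signal lay between 782.1 and 1353.9 intensity units, and 62.92% to 69.58% of probes were well above background on each array. The members were well above background in 169 of 169 probe values and saturated in 0. Hepatocyte markers were high on all 13 arrays, with mean values of 7.37 to 7.88 on HFHS vehicle arrays, 7.67 to 7.82 on ST pollutants arrays and 7.70 to 7.91 on ST vehicle arrays. The 3 arrays of slide 1, which hold 1 sample of each group, lay apart on the first principal component (-41.83 to -35.45, against -2.33 to 36.67 for the other arrays). Replicates 3, 4 and 5 of HFHS vehicle carried transcripts of pancreatic acinar cells, with marker means of 4.60, 3.25 and 6.71, while the other 10 arrays lay between -3.86 and -2.24, and the part of these transcripts in the results was not tested. The mean of 5 cholangiocyte markers lay between -2.85 and -2.55 on HFHS vehicle arrays, between -2.66 and -1.83 on ST pollutants arrays and between -2.15 and -2.10 on ST vehicle arrays, so HFHS vehicle lay below ST vehicle without overlap. The mean of 3 erythroid markers lay between 3.48 and 4.16 on HFHS vehicle arrays, between 3.99 and 4.30 on ST pollutants arrays and between 3.29 and 3.80 on ST vehicle arrays, so ST pollutants lay above ST vehicle without overlap. The mean of 4 skeletal muscle markers lay between -3.86 and -1.20 on ST vehicle arrays and between -3.57 and -0.79 on ST pollutants arrays. On HFHS vehicle arrays it was -0.89 in replicate 3 and between -5.24 and -4.08 in the others, and these others lay below every ST array. No cholangiocyte, erythroid or skeletal muscle marker was called. The mean of 7 adipocyte markers lay between -2.96 and -2.30 on HFHS vehicle arrays. It lay between -3.12 and -0.75 on ST pollutants arrays and between -2.68 and -1.49 on ST vehicle arrays, and the ranges overlapped. The median difference of the 7 was -0.33 in HFHS vehicle over ST vehicle and 0.01 in ST pollutants over ST vehicle. In HFHS vehicle over ST pollutants it was -0.62, and 1 of 7 was called, lower, beside 3.88% of all genes. It was Pnpla2, a triglyceride lipase that hepatocytes also express (-0.64 ± 0.10, adjusted p = 0.005868), named after its value was seen. The part of these cell types in the members' values was not tested. Values without the 3 acinar-high HFHS vehicle arrays, or without slide 1, are given where they change a statement.

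Each value rests on 60-base probes, and the 5 probes printed here are those of the genes that separated HFHS vehicle or ST pollutants from ST vehicle and the pair that disagreed for Apob. Positions are on build mm9, as the scanner files give them. The Apoa4 probe is annotated to NM_007468 and covers chr9:46049661-46050404 on the plus strand, a span of 744 bases, so it joins sequence from more than 1 exon. The Apom probe is annotated to NM_018816 (chr17:35267047-35267106, minus strand) and the Apoa1 probe to NM_009692 (chr9:46037921-46037980, plus strand). Both Apob probes are annotated to NM_009693 on the plus strand, at chr12:8012697-8012756 for the probe used as main, which starts at transcript position 4473, and at chr12:8023194-8023253 for the other, which starts at transcript position 13457. They are given 5′ to 3′.
Apoa4: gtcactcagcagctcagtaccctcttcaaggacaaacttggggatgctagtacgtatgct
Apom: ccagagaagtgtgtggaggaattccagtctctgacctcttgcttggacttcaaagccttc
Apoa1: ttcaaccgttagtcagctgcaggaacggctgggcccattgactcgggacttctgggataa
Apob, main probe: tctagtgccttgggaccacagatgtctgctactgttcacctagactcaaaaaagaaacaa
Apob, other probe: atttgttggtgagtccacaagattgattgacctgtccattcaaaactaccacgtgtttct

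On the genome, the probes of Apoa1, Apoc3, Apoa4 and Apoa5 lay within 42.1 kb of chromosome 9, and those of Apoc2 and Apoe within 24.8 kb of chromosome 7. Apoa1 and Apoe were each read by 10 spots of 1 probe per array. Their spots differed with a median SD of 0.07 for Apoa1 and 0.16 for Apoe on an array, where the SD between arrays was 0.34 in HFHS vehicle, 0.35 in ST pollutants and 0.13 in ST vehicle for Apoa1, and 0.30 in HFHS vehicle, 0.14 in ST pollutants and 0.20 in ST vehicle for Apoe. An array's value is the mean of its spots, which varies less than a single spot does. The SD between arrays and the SD between spots therefore cannot be set against each other directly. The other probes had 1 spot each. Apoa2, Apob and Apoc3 had 2 probes, and the probe with the higher mean stands for the gene.

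No member was called in any of the 3 comparisons of the main model, which has no term for the slide. With slide as a random block Apoa4 and Apom were called in HFHS vehicle over ST vehicle, and with slide as a block neither was. Apoa4 was 1.99-fold higher in HFHS vehicle than in ST vehicle, and Apom and Apoa1 were lower by 1.39-fold and 1.58-fold, and for these 3 genes no HFHS vehicle array overlapped an ST vehicle array. In ST pollutants the values of Apoa4 and Apom lay on the same side of ST vehicle, again without overlap. Apob, Mttp, Apoa2, Apoa5, Apoc2, Apoc3 and Apoe overlapped between the groups in each comparison. The diet comparison, HFHS vehicle over ST vehicle, and the pollutant comparison on the ST diet share the same 3 ST vehicle arrays, so they are not independent of each other.

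The count of 0 called members in HFHS vehicle over ST vehicle stands beside 0.686% of all genes tested, in ST pollutants over ST vehicle beside 0.983%, and in HFHS vehicle over ST pollutants beside 3.88%. At an unadjusted p under 0.05, 3 of 10 members passed in HFHS vehicle over ST vehicle, beside 12.1% of all genes. In ST pollutants over ST vehicle, 2 of 10 members passed, also beside 12.1%. The corresponding count for HFHS vehicle over ST pollutants was 3 of 10, beside 18.3%. The members whose groups did not overlap were 3 of 10 in HFHS vehicle over ST vehicle, beside 9.14% of all genes. Of these, 1 was higher, beside 3.81% of all genes, and 2 were lower, beside 5.33%. For ST pollutants over ST vehicle they were 2 of 10, beside 8.33%, with 1 higher, beside 3.92%, and 1 lower, beside 4.4%. Between HFHS vehicle and ST pollutants they were 0 of 10, beside 6.93%. The median member difference was -0.12 in HFHS vehicle over ST vehicle, -0.02 in ST pollutants over ST vehicle and -0.12 in HFHS vehicle over ST pollutants, and the median of all genes was -0.02, -0.01 and -0.0047 in the same order. In each comparison 3 members had a positive difference and 7 a negative one. Of all genes, 45.5%, 48.1% and 48.9% had a positive difference, in the same order.

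**Figure D1:**
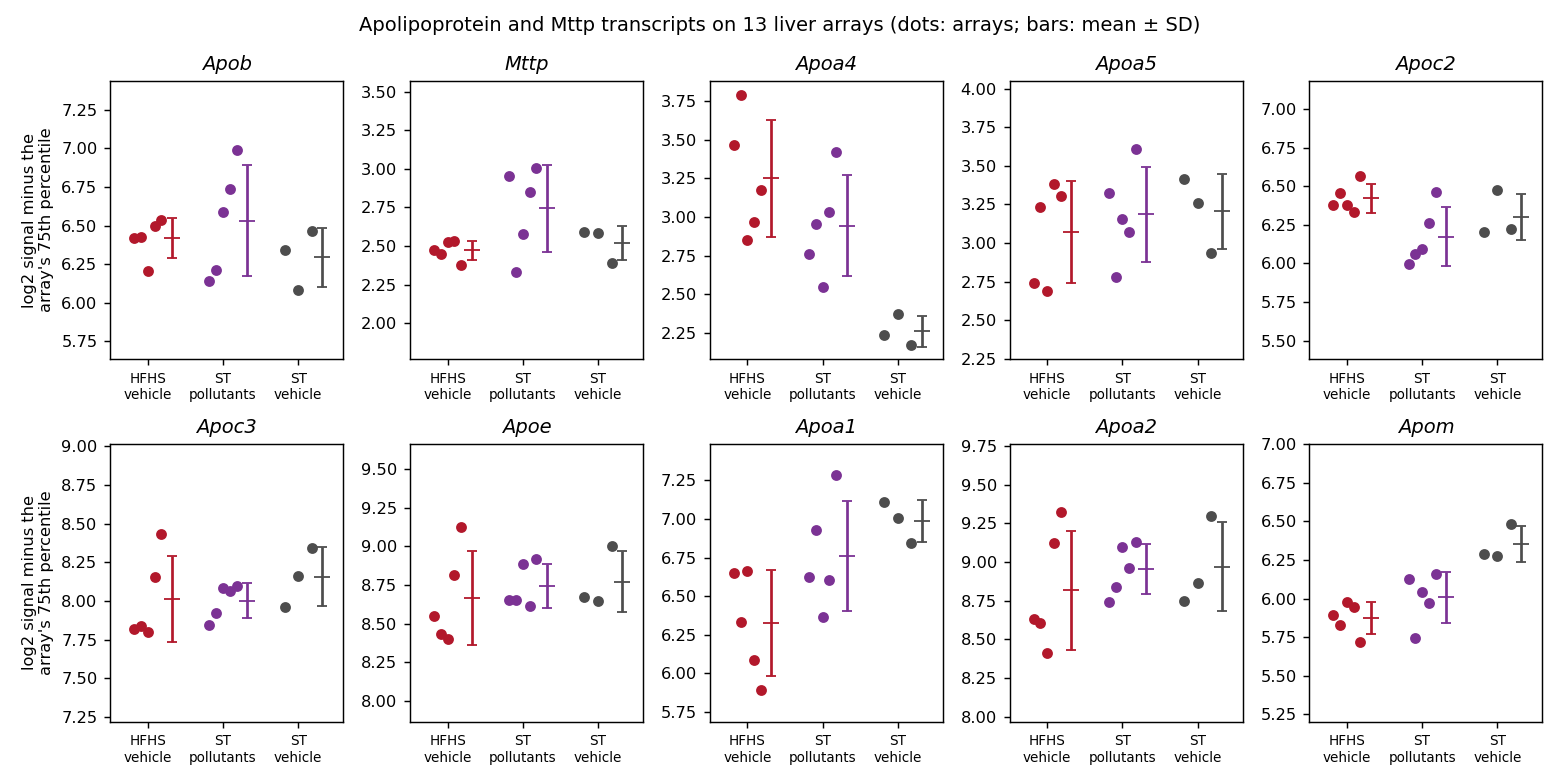
Each panel shows 1 gene on 13 arrays, with the log2 signal minus the array's 75th percentile on the vertical axis and the 3 groups on the horizontal axis (dots are arrays, bars are mean ± SD). Apoa4 is low and Apom is high on all 3 ST vehicle arrays relative to the other 10 arrays, while the groups overlap for Apob, Mttp, Apoa5, Apoc2, Apoc3, Apoe and Apoa2.

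Apob encodes the structural protein of VLDL. On its main probe the HFHS vehicle arrays read 6.42, 6.43, 6.20, 6.50 and 6.54, the ST pollutants arrays 6.14, 6.21, 6.59, 6.74 and 6.99, and the ST vehicle arrays 6.34, 6.09 and 6.46. The 3 groups overlapped, and the ST pollutants arrays were the most spread. Apob differed by 0.12 ± 0.18 in HFHS vehicle over ST vehicle (adjusted p = 0.9373), by 0.24 ± 0.18 in ST pollutants over ST vehicle (adjusted p = 0.7168) and by -0.12 ± 0.15 in HFHS vehicle over ST pollutants (adjusted p = 0.8205).

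The other Apob probe gave another picture. It read 5.49, 5.45, 5.22, 5.68 and 5.35 on HFHS vehicle arrays, 5.995, 5.98, 5.66, 5.76 and 5.79 on ST pollutants arrays, and 5.56, 5.96 and 5.61 on ST vehicle arrays. All HFHS vehicle arrays but replicate 4 lay below every ST pollutants array. In the fit over all probes, this Apob probe differed by -0.40 ± 0.11 in HFHS vehicle over ST pollutants (adjusted p = 0.07244), by -0.27 ± 0.13 in HFHS vehicle over ST vehicle (adjusted p = 0.4296) and by 0.13 ± 0.13 in ST pollutants over ST vehicle (adjusted p = 0.8073). Within slides it was lower in HFHS vehicle than in ST pollutants on 5 of 5 slides, by 0.08 to 0.53 on the log2 scale. With slide as a block this Apob probe had an adjusted p = 0.05563 in that comparison, and with slide as a random block it passed the threshold (adjusted p = 0.02557). Without slide 1 it differed by -0.37 (limma adjusted p = 0.2347), and without the 3 acinar-high arrays by -0.37 (adjusted p = 0.2501). The adjusted p was 0.1918 with median scaling and 0.1456 after quantile normalization.

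Over the 13 arrays the 2 Apob probes had a Pearson r of -0.12, given as a description. The main probe exceeded the other by 0.82 to 1.19 on the HFHS vehicle arrays. On the ST pollutants arrays the gap was 0.14 and 0.23 in replicates 1 and 2, and 0.92, 0.98 and 1.20 in replicates 3, 4 and 5. On the ST vehicle arrays it was 0.78, 0.12 and 0.86. The gap was small on 3 arrays, none of them HFHS vehicle, and which of the 2 probes follows the full Apob transcript was not tested.

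Mttp encodes the lipid-loading subunit of the microsomal transfer protein. It read 2.47, 2.45, 2.52, 2.53 and 2.38 in HFHS vehicle, 2.95, 2.33, 2.58, 2.85 and 3.00 in ST pollutants, and 2.59, 2.58 and 2.39 in ST vehicle. Replicates 1, 4 and 5 of ST pollutants lay above every array of the other groups, and replicate 2 of ST pollutants lay below them. The Mttp difference was -0.05 ± 0.14 in HFHS vehicle over ST vehicle (adjusted p = 0.9827), 0.22 ± 0.14 in ST pollutants over ST vehicle (adjusted p = 0.6099) and -0.27 ± 0.12 in HFHS vehicle over ST pollutants (adjusted p = 0.2456). Within slides, Mttp was lower in HFHS vehicle than in ST pollutants on 4 of 5 slides.

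Apoa4 is an apolipoprotein of chylomicrons, VLDL and HDL, made in the intestine and, in mice, also in the liver, where it is known for a link with triglyceride content. It read 3.47, 3.79, 2.85, 2.97 and 3.17 on HFHS vehicle arrays, 2.76, 2.96, 2.55, 3.03 and 3.42 on ST pollutants arrays, and 2.23, 2.37 and 2.17 on ST vehicle arrays. Every HFHS vehicle and ST pollutants array lay above the highest ST vehicle array. HFHS vehicle and ST pollutants overlapped each other, through replicates 3, 4 and 5 of HFHS vehicle, the arrays that carried acinar transcripts.

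Apoa4 averaged 3.25 ± 0.38 in HFHS vehicle (SD, n = 5), 2.94 ± 0.33 in ST pollutants (SD, n = 5) and 2.26 ± 0.10 in ST vehicle (SD, n = 3). The difference was 0.99 ± 0.22, or 1.99-fold, in HFHS vehicle over ST vehicle, with a limma adjusted p = 0.06782 and a 95% interval of 0.51 to 1.47. It was 0.68 ± 0.22, or 1.61-fold, in ST pollutants over ST vehicle, with an adjusted p = 0.1953 and an interval of 0.21 to 1.16. HFHS vehicle and ST pollutants differed by 0.31 ± 0.19 (adjusted p = 0.4539, interval -0.11 to 0.72), and without the 3 acinar-high arrays by 0.68 (adjusted p = 0.1603), where the 2 remaining HFHS vehicle arrays lay above every ST pollutants array. In order, the Apoa4 level was highest in HFHS vehicle, then ST pollutants, then ST vehicle, and the neighbours HFHS vehicle and ST pollutants did not differ beyond their spread when all 13 arrays were used. In bulk liver RNA, fewer cells of a type and less RNA per cell cannot be told apart.

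Slide by slide, Apoa4 was higher in HFHS vehicle than in ST vehicle on 3 of 3 slides, by 1.00 to 1.42, and higher in ST pollutants than in ST vehicle on 3 of 3, by 0.53 to 1.25. With slide as a block Apoa4 differed by 1.16 in HFHS vehicle over ST vehicle (adjusted p = 0.05201), and with slide as a random block by 1.06, which passed the threshold (adjusted p = 0.0203). Over all 29 alternative settings of the limma fits, the Apoa4 difference in HFHS vehicle over ST vehicle stayed between 0.83 and 1.37, with adjusted p-values of 0.0203 to 0.337. Without the 3 HFHS vehicle arrays that carried acinar transcripts it was 1.37, with an adjusted p = 0.09727.

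Since the intestine also makes Apoa4, markers of enterocytes are given beside it. Of the 10 listed, 7 passed the filter, and Lct and Cdx2 were well above background on 0 of 13 arrays. The mean of the 7 lay between -2.51 and -1.93 on HFHS vehicle arrays, between -2.43 and -1.52 on ST pollutants arrays and between -2.29 and -2.10 on ST vehicle arrays, and these ranges overlapped. The median difference of the 7 was -0.18 in HFHS vehicle over ST vehicle, 0.04 in ST pollutants over ST vehicle and -0.14 in HFHS vehicle over ST pollutants. In the last of these, 1 of 7 was called, beside 3.88% of all genes, and it went against the list's median. It was Fabp2, the intestinal fatty acid binding protein, and it is named after its value was seen. Fabp2 rose by 0.90 ± 0.20 in HFHS vehicle over ST pollutants (adjusted p = 0.02935), and differed by 0.94 ± 0.23 in HFHS vehicle over ST vehicle (adjusted p = 0.09958) and by 0.04 ± 0.23 in ST pollutants over ST vehicle (adjusted p = 0.9868).

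Apoa5 encodes a promoter of plasma triglyceride hydrolysis by lipoprotein lipase. It read 2.69 to 3.38 with a median of 3.24 in HFHS vehicle, 2.78 to 3.61 with a median of 3.16 in ST pollutants, and 2.94 to 3.42 with a median of 3.26 in ST vehicle. The 3 ranges overlapped. Apoa5 differed by -0.13 ± 0.21 in HFHS vehicle over ST vehicle (adjusted p = 0.9459), by -0.02 ± 0.21 in ST pollutants over ST vehicle (adjusted p = 0.9924) and by -0.12 ± 0.18 in HFHS vehicle over ST pollutants (adjusted p = 0.8601).

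Apoc2 encodes the obligate cofactor of lipoprotein lipase. It read 6.38, 6.46, 6.38, 6.33 and 6.57 in HFHS vehicle, 5.99, 6.06, 6.09, 6.26 and 6.46 in ST pollutants, and 6.20, 6.47 and 6.22 in ST vehicle. Replicates 1 to 4 of ST pollutants lay below every HFHS vehicle array, and replicate 5 lay among them. Apoc2 differed by 0.25 ± 0.10 in HFHS vehicle over ST pollutants (adjusted p = 0.1983), and was higher in HFHS vehicle on 5 of 5 slides, by 0.07 to 0.39. It differed by 0.12 ± 0.11 in HFHS vehicle over ST vehicle (adjusted p = 0.8306) and by -0.13 ± 0.11 in ST pollutants over ST vehicle (adjusted p = 0.7798). The Apoc2 difference between HFHS vehicle and ST pollutants passed the threshold after quantile normalization, at 0.39 (adjusted p = 0.03389), and in the authors' deposited table, at 0.36 (adjusted p = 0.04849). These were 2 of 29 alternative settings of the limma fits. Over all of them the difference stayed between 0.09 and 0.39, with adjusted p-values of 0.03389 to 0.7427.

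Apoc3 encodes an inhibitor of lipoprotein lipase and of remnant uptake. Its main probe read 7.80 to 8.43 with a median of 7.84 in HFHS vehicle, 7.85 to 8.10 with a median of 8.07 in ST pollutants, and 7.96 to 8.34 with a median of 8.16 in ST vehicle. Apoc3 differed by -0.15 ± 0.15 in HFHS vehicle over ST vehicle (adjusted p = 0.8563), by -0.15 ± 0.15 in ST pollutants over ST vehicle (adjusted p = 0.7999) and by 0.01 ± 0.13 in HFHS vehicle over ST pollutants (adjusted p = 0.9942). The other Apoc3 probe starts 2472 bases away near the start of a different transcript record, and the 2 probes had an r of 0.08 over the arrays. That probe read -1.23 to 0.34 in HFHS vehicle, -1.13 to 0.40 in ST pollutants and -0.20 to 0.54 in ST vehicle, and its groups overlapped.

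Apoe encodes the ligand through which remnants of VLDL and chylomicrons bind their receptors. It read 8.40 to 9.13 with a median of 8.55 in HFHS vehicle, 8.61 to 8.92 with a median of 8.65 in ST pollutants, and 8.64 to 8.999 with a median of 8.67 in ST vehicle. The Apoe difference was -0.11 ± 0.16 in HFHS vehicle over ST vehicle (adjusted p = 0.9423), -0.03 ± 0.16 in ST pollutants over ST vehicle (adjusted p = 0.9852) and -0.08 ± 0.14 in HFHS vehicle over ST pollutants (adjusted p = 0.8866).

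Apoa1 encodes the main protein of HDL. It read 6.65, 6.33, 6.67, 6.09 and 5.89 in HFHS vehicle, 6.62, 6.93, 6.37, 6.60 and 7.28 in ST pollutants, and 7.11, 7.01 and 6.84 in ST vehicle. All 5 HFHS vehicle arrays lay below the lowest ST vehicle array, whereas ST pollutants overlapped both other groups. The Apoa1 difference was -0.66 ± 0.22, or 1.58-fold lower, in HFHS vehicle over ST vehicle (adjusted p = 0.2259). It was -0.23 ± 0.22 in ST pollutants over ST vehicle (adjusted p = 0.7976) and -0.44 ± 0.19 in HFHS vehicle over ST pollutants (adjusted p = 0.241). Within slides, Apoa1 was lower in HFHS vehicle than in ST vehicle on 3 of 3 slides, by 0.46 to 0.95 on the log2 scale. Without the 3 HFHS vehicle arrays that carried acinar transcripts the Apoa1 difference in that comparison was -0.50 (adjusted p = 0.5831).

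Apoa2 encodes the second protein of HDL. It read 8.41 to 9.32 with a median of 8.63 in HFHS vehicle, 8.74 to 9.13 with a median of 8.96 in ST pollutants, and 8.75 to 9.30 with a median of 8.87 in ST vehicle. Apoa2 differed by -0.15 ± 0.20 in HFHS vehicle over ST vehicle (adjusted p = 0.9199), by -0.01 ± 0.20 in ST pollutants over ST vehicle (adjusted p = 0.9941) and by -0.14 ± 0.18 in HFHS vehicle over ST pollutants (adjusted p = 0.8039). Its 2 probes moved together over the arrays, with an r of 0.89. The 95% intervals of the 3 differences reached from -0.59 to 0.43 for Apoa2, from -0.59 to 0.44 for Apoa5, from -0.48 to 0.29 for Apoc3 and from -0.46 to 0.33 for Apoe. Without the 3 acinar-high arrays the difference in HFHS vehicle over ST vehicle was -0.35 for Apoa2 (adjusted p = 0.5933), -0.33 for Apoc3 (adjusted p = 0.465) and -0.28 for Apoe (adjusted p = 0.6123).

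Apom encodes an HDL protein that carries sphingosine 1-phosphate. It read 5.89, 5.83, 5.98, 5.95 and 5.72 in HFHS vehicle, 6.13, 5.74, 6.04, 5.97 and 6.16 in ST pollutants, and 6.29, 6.28 and 6.49 in ST vehicle. All 10 arrays of HFHS vehicle and ST pollutants lay below the lowest ST vehicle array, and these 2 groups overlapped each other. Apom averaged 5.87 ± 0.10 in HFHS vehicle (SD, n = 5), 6.01 ± 0.16 in ST pollutants (SD, n = 5) and 6.35 ± 0.12 in ST vehicle (SD, n = 3).

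The Apom difference was -0.48 ± 0.10, or 1.39-fold lower, in HFHS vehicle over ST vehicle, with a limma adjusted p = 0.06474 and a 95% interval of -0.71 to -0.25. It was -0.34 ± 0.10, or 1.27-fold lower, in ST pollutants over ST vehicle, with an adjusted p = 0.1693 and an interval of -0.57 to -0.12. HFHS vehicle and ST pollutants differed by -0.14 ± 0.09 (adjusted p = 0.4979, interval -0.33 to 0.06). The Apom level was highest in ST vehicle, then ST pollutants, then HFHS vehicle, and the neighbours HFHS vehicle and ST pollutants did not differ beyond their spread. Within slides Apom was lower in HFHS vehicle than in ST vehicle on 3 of 3 slides, by 0.40 to 0.77 on the log2 scale, and lower in ST pollutants than in ST vehicle on 3 of 3, by 0.17 to 0.53.

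With slide as a block the Apom difference in HFHS vehicle over ST vehicle was -0.51 (adjusted p = 0.1129), and with slide as a random block it was -0.49 and passed the threshold (adjusted p = 0.02666). Apom also passed in that comparison when replicate 2 of ST pollutants was left out. Over the 29 alternative settings its difference stayed between -0.65 and -0.40, with adjusted p-values of 0.02666 to 0.2656.

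**Figure D2:**
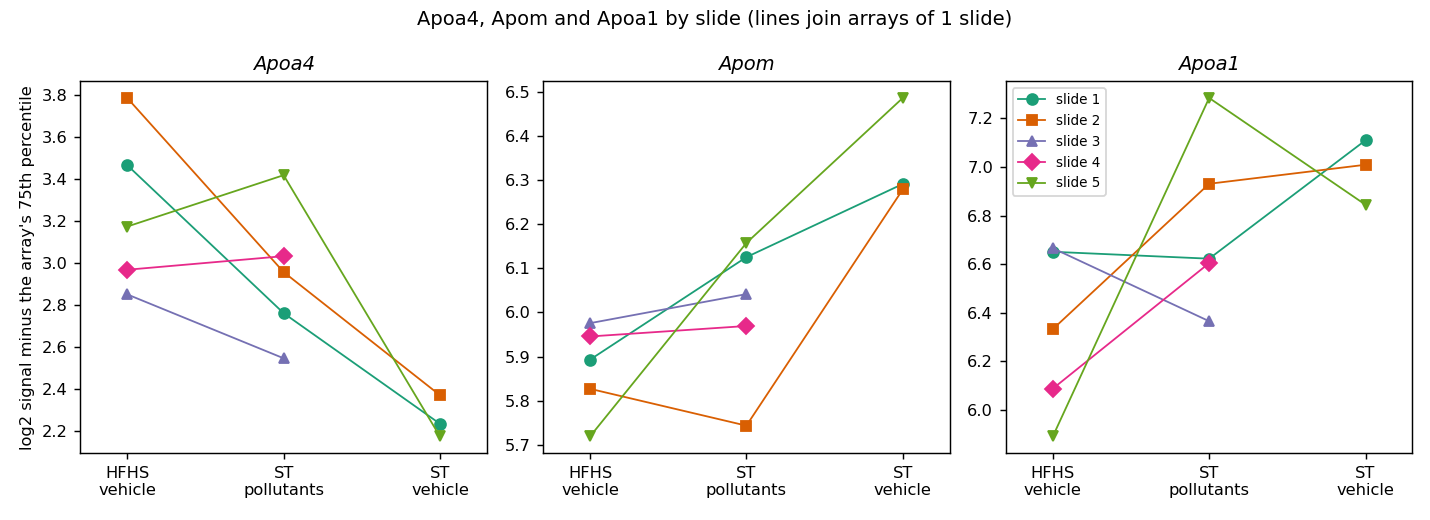
The log2 signal minus the array's 75th percentile is plotted for Apoa4, Apom and Apoa1 by group, with lines joining arrays of 1 slide (slides 3 and 4 hold no ST vehicle array). On each of the 3 slides with an ST vehicle array, Apoa4 is higher and Apom is lower in both other groups, and Apoa1 is lower in HFHS vehicle.

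**Figure D3:**
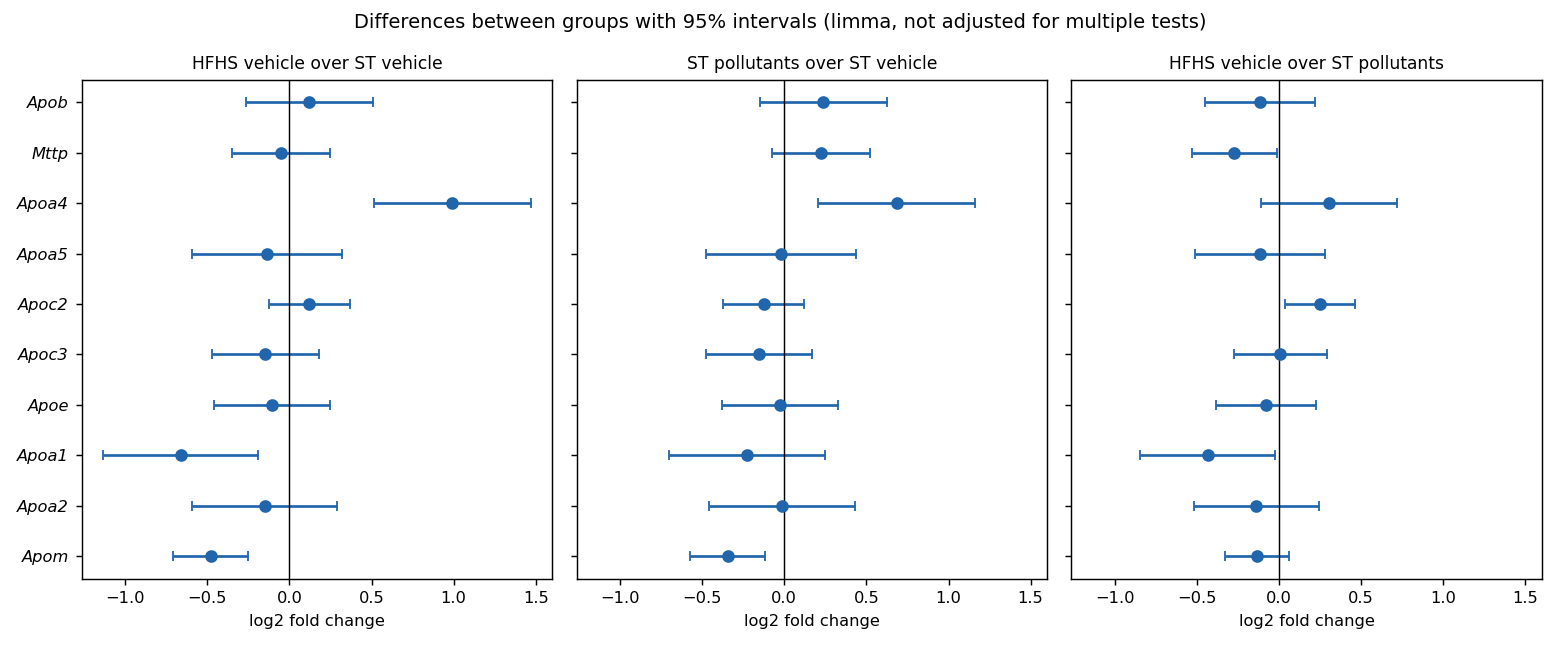
Points are log2 differences of the limma model for the 10 members and bars are 95% intervals not adjusted for multiple tests, with the tested comparison named above each panel. In HFHS vehicle over ST vehicle the intervals of Apoa4, Apoa1 and Apom leave out 0. So do those of Apoa4 and Apom in ST pollutants over ST vehicle. In HFHS vehicle over ST pollutants those of Apoa1, Apoc2 and Mttp leave out 0. No member has an adjusted p under 0.05 in any panel.

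Of the 45 pairs of members, 29 had a positive Pearson r over the 13 arrays, with a median of 0.18. The 3 highest pairs joined Apoa2, Apoc3 and Apoe, and they are a description, since both genes of a pair share the value subtracted from each array. Apoa2 and Apoe had r = 0.95 and rho = 0.89, Apoa2 and Apoc3 had r = 0.92 and rho = 0.93, and Apoc3 and Apoe had r = 0.88 and rho = 0.81. Before scaling, the r of the same pairs was 0.47 for Apoa2 and Apoe, 0.54 for Apoa2 and Apoc3, and 0.76 for Apoc3 and Apoe. The lowest correlation, between Apoa4 and Apom, was r = -0.72 over the arrays and -0.14 after the group means were subtracted.

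Apoa2, Apoc3 and Apoe were read at high intensities, 438748 to 578046 for Apoa2, 242934 to 335561 for Apoc3 and 414242 to 468184 for Apoe. Before scaling, log2 Apoe signal had an SD of 0.06 over the 13 arrays, Apoa2 of 0.11 and Apoc3 of 0.14, while the log2 of the 75th percentile itself had an SD of 0.24. After scaling the SD was 0.22 for Apoe, 0.28 for Apoa2 and 0.20 for Apoc3. Since the percentile is subtracted from every value, a probe that varied less than the percentile has to run against it after scaling. The r with the percentile was -0.97 for scaled Apoe, -0.91 for Apoa2 and -0.81 for Apoc3, as a description. For Apoa4, Apom and Apoa1 it was 0.26, -0.09 and 0.27. Whether the transcripts of Apoe, Apoa2 and Apoc3 varied between animals was not tested apart from the scaling.

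**Figure D4:**
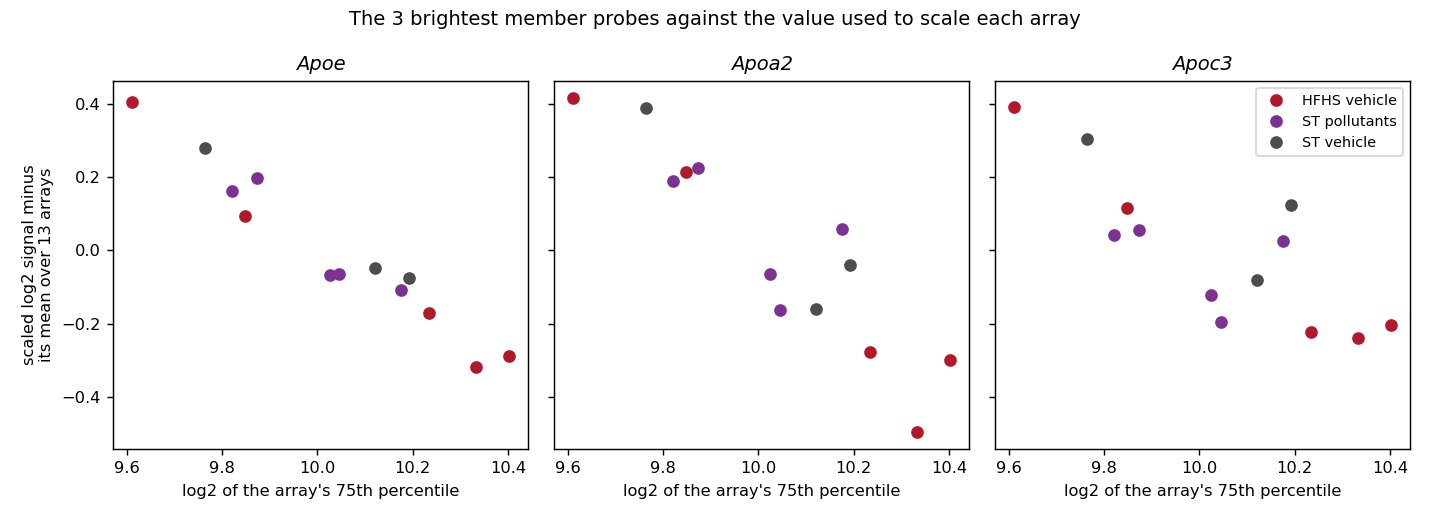
Each dot is 1 of 13 arrays, coloured by group, with the log2 of the array's 75th percentile on the horizontal axis and the scaled log2 signal minus its mean over the arrays on the vertical axis. Values of Apoe, Apoa2 and Apoc3 decline as the percentile rises (r = -0.97, -0.91 and -0.81), which the subtraction brings about for probes whose signal before scaling varied less than the percentile.

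Other genes of the pathway were taken from 5 lists: 12 other apolipoproteins and HDL proteins, 16 genes of particle assembly and secretion, 10 plasma lipases, transfer proteins and their regulators, 9 lipoprotein receptors and their regulators, and 19 transcription factors of apolipoprotein genes. All were tested except Lipg, an endothelial lipase, which did not pass the filter. No gene of the lists was called in HFHS vehicle over ST vehicle or in ST pollutants over ST vehicle. For HFHS vehicle over ST pollutants, 1 of 16 assembly genes and 1 of 9 tested lipase genes were called, both higher, and 0 of the other lists, beside 3.88% of all genes called and 1.57% called higher.

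Tm6sf2, a membrane protein of the secretory pathway needed for full lipid loading of VLDL, read 2.59, 2.46, 2.39, 2.47 and 2.36 in HFHS vehicle, 2.17, 2.05, 2.19, 2.33 and 2.06 in ST pollutants, and 2.49, 2.59 and 2.52 in ST vehicle. All ST pollutants arrays lay below all arrays of the other groups. Tm6sf2 was higher by 0.30 ± 0.07 in HFHS vehicle over ST pollutants (limma adjusted p = 0.04465), on 5 of 5 slides, and differed by -0.38 ± 0.08 in ST pollutants over ST vehicle (adjusted p = 0.05965) and by -0.08 ± 0.08 in HFHS vehicle over ST vehicle (adjusted p = 0.8661). With slide as a block its adjusted p in HFHS vehicle over ST pollutants was 0.05805.

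Lmf1, which matures lipoprotein and hepatic lipase, read 3.70, 3.61, 3.46, 3.36 and 3.48 in HFHS vehicle, 3.26, 3.04, 3.28, 3.27 and 2.95 in ST pollutants, and 3.41, 3.44 and 3.31 in ST vehicle. All ST pollutants arrays again lay below all other arrays. Lmf1 was higher by 0.36 ± 0.09 in HFHS vehicle over ST pollutants (limma adjusted p = 0.04499), on 5 of 5 slides, and its adjusted p was 0.05688 with slide as a block. Lmf1 differed by -0.23 ± 0.10 in ST pollutants over ST vehicle (adjusted p = 0.3969) and by 0.13 ± 0.10 in HFHS vehicle over ST vehicle (adjusted p = 0.7546). Without the 3 HFHS vehicle arrays that carried acinar transcripts neither call held in HFHS vehicle over ST pollutants, at 0.37 for Tm6sf2 (adjusted p = 0.1259) and 0.49 for Lmf1 (adjusted p = 0.08114), and without slide 1 the adjusted p was 0.2109 for Tm6sf2 and 0.1744 for Lmf1. When 1 replicate was left out, each of the 2 genes kept its call in 1 of 13 fits, Tm6sf2 without replicate 4 of ST pollutants and Lmf1 without replicate 4 of HFHS vehicle.

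The other assembly genes of smallest p included a pair tied to Apob mRNA editing, an edit that the array does not read. Apobec1, the editing enzyme, differed by -0.26 ± 0.10 in HFHS vehicle over ST vehicle (adjusted p = 0.3178), and A1cf, its RNA-binding partner, by 0.33 ± 0.14 (adjusted p = 0.3706). Mia2, a cargo receptor of the endoplasmic reticulum exit sites, differed by 0.37 ± 0.10 in ST pollutants over ST vehicle without overlap (adjusted p = 0.0996). Cideb, which acts in VLDL lipidation, differed by 0.26 ± 0.08 in HFHS vehicle over ST pollutants without overlap (adjusted p = 0.08808). The median of the 16 assembly genes was -0.05 in HFHS vehicle over ST vehicle, -0.02 in ST pollutants over ST vehicle and -0.01 in HFHS vehicle over ST pollutants.

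Among the other apolipoproteins, Saa4, a constitutive serum amyloid A protein of HDL, differed by 0.40 ± 0.19 in HFHS vehicle over ST vehicle without overlap (adjusted p = 0.4461). Apoh, also called beta-2-glycoprotein I, differed by -0.13 ± 0.09 in the same comparison (adjusted p = 0.6928). Apof differed by -0.27 ± 0.09 in ST pollutants over ST vehicle without overlap (adjusted p = 0.203) and by 0.17 ± 0.08 in HFHS vehicle over ST pollutants (adjusted p = 0.2622). Apoc4, a neighbour of Apoc2, differed by -0.20 ± 0.16 in ST pollutants over ST vehicle (adjusted p = 0.7256), and the lipocalin Apod by -0.41 ± 0.22 in HFHS vehicle over ST pollutants (adjusted p = 0.3608). The list's median was -0.04 in HFHS vehicle over ST vehicle, -0.02 in ST pollutants over ST vehicle and 0.08 in HFHS vehicle over ST pollutants.

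Of the lipase list, Pltp, the phospholipid transfer protein, differed by -0.53 ± 0.15 in HFHS vehicle over ST vehicle (adjusted p = 0.175) and by -0.51 ± 0.15 in ST pollutants over ST vehicle (adjusted p = 0.1659), without overlap in either. Gpihbp1, the capillary anchor of lipoprotein lipase, differed by -0.20 ± 0.11 in HFHS vehicle over ST vehicle without overlap (adjusted p = 0.5411). Lipc, the hepatic lipase gene, differed by -0.38 ± 0.12 in ST pollutants over ST vehicle without overlap (adjusted p = 0.1899). Angptl4, an inhibitor of lipoprotein lipase, differed by -0.66 ± 0.20 in HFHS vehicle over ST pollutants (adjusted p = 0.09713). The median of the 9 tested genes was -0.14 in HFHS vehicle over ST vehicle, -0.23 in ST pollutants over ST vehicle and 0.08 in HFHS vehicle over ST pollutants.

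Of the receptor list, Vldlr, the VLDL receptor gene, differed by 0.85 ± 0.30 in HFHS vehicle over ST vehicle without overlap (adjusted p = 0.2554) and by 0.50 ± 0.30 in ST pollutants over ST vehicle (adjusted p = 0.5872). Mylip, a ubiquitin ligase of the LDL receptor, differed by -0.34 ± 0.12 in HFHS vehicle over ST pollutants (adjusted p = 0.1546), and Scarb1, the HDL receptor gene, by -0.20 ± 0.11 (adjusted p = 0.3664). The median of the 9 genes was -0.14 in HFHS vehicle over ST vehicle, -0.01 in ST pollutants over ST vehicle and -0.04 in HFHS vehicle over ST pollutants.

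Of the 19 transcription factors, 16 had a positive difference in HFHS vehicle over ST vehicle, beside 45.5% of all genes, with a median of 0.15. In ST pollutants over ST vehicle 10 were positive, beside 48.1%, with a median of 0.04, and in HFHS vehicle over ST pollutants 11 were positive, beside 48.9%, with a median of 0.14. Nr1d1, a clock repressor, differed by -0.74 ± 0.31 in HFHS vehicle over ST vehicle (adjusted p = 0.3464) and by -1.02 ± 0.31 in ST pollutants over ST vehicle (adjusted p = 0.1697). Nr1h3, the oxysterol receptor LXR alpha, differed by 0.22 ± 0.09 in HFHS vehicle over ST vehicle (adjusted p = 0.3545). Ppargc1b, a coactivator of lipid synthesis genes, differed by 0.49 ± 0.15 in ST pollutants over ST vehicle (adjusted p = 0.1693). The forkhead factor Foxa2 differed in HFHS vehicle over ST pollutants by 0.45 ± 0.12 without overlap (adjusted p = 0.05914) and Srebf1, the regulator of fatty acid synthesis, by 0.71 ± 0.23 (adjusted p = 0.1145).

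**Figure D5:**
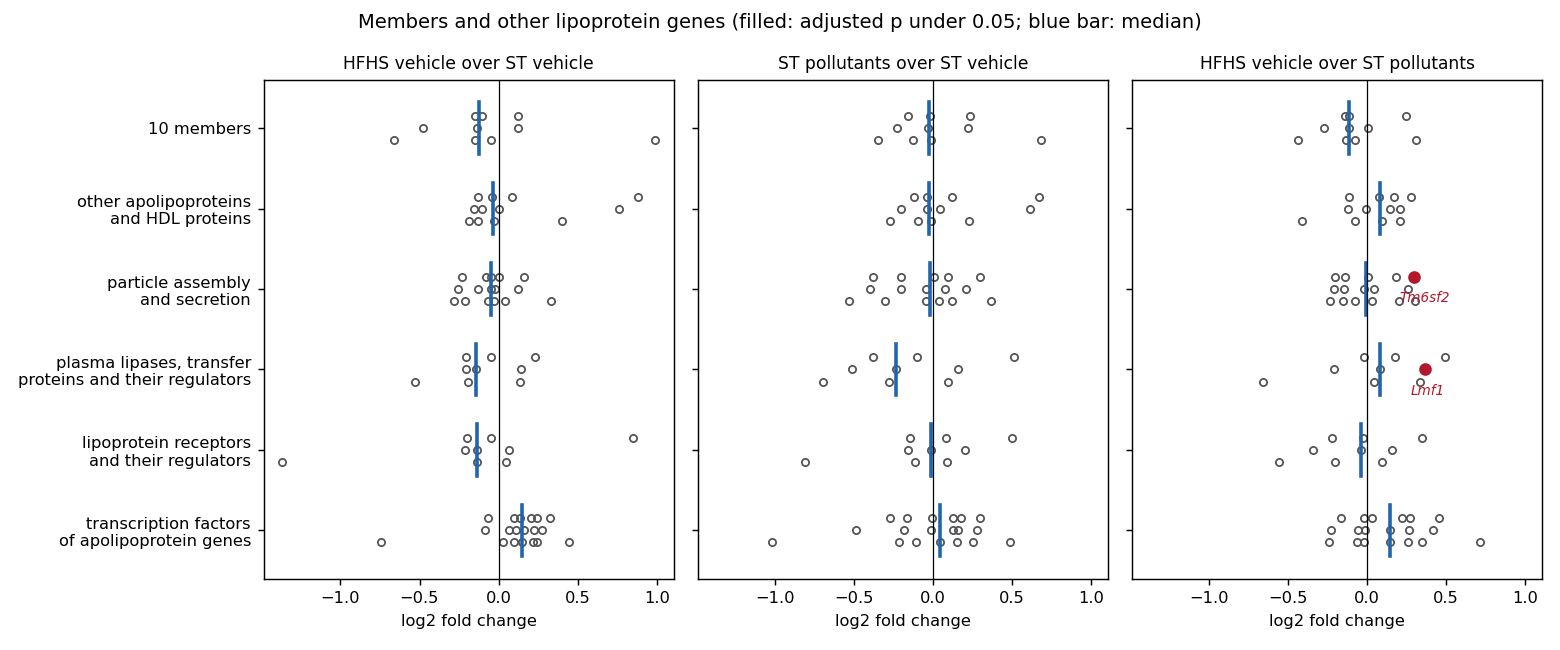
Each dot is the limma log2 difference of 1 gene in the comparison named above the panel, by list, with the list's median as a blue bar and filled dots for an adjusted p under 0.05. Tm6sf2 and Lmf1 in HFHS vehicle over ST pollutants are the 2 filled dots, and the 10 members span -0.66 to 0.99 in HFHS vehicle over ST vehicle.

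The genes whose values were most like those of the particle core over the 13 arrays were found by Pearson r among all tested genes, as a description. For the main probe of Apob they were Dffa (r = 0.87), Hdac3 (r = 0.86) and D330050I16Rik (r = 0.85), and for Mttp they were Rabggtb (r = 0.91), Serbp1 (r = 0.87) and Dusp3 (r = 0.86). The other Apob probe, with an r of -0.12 to the main probe, was not used in this search. Apob and Mttp were not in each other's 3. All 13 points share the arrays, the slides and the scaling.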

How the data were processed

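Liver RNA was labelled with Cy3 from 0.1 ug and hybridized to 13 arrays in 3 groups. Per the file headers, the authors extracted the deposited intensity values with Agilent Feature Extraction 11.5.1.1, on the linear scale. The authors also deposited a table of log2 values for 26082 probes. The submitters' processing notes name limma. Each of the table's 13 columns matched its own scanner file best, its column medians were 9.28 to 9.30, and it served only as an alternative. The log2 scale was read off the values themselves, and the centring is not given in the sources used here.

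From the processed signal, outlier spots were set to missing (128 values among tested genes, 0 among member probes), log2 values were averaged per probe, and the array's 75th percentile was taken off. The filter kept 25051 of 39429 probes, those well above background throughout 1 or more of the groups. The probe with the highest mean stood for a gene. limma 3.58.1 in R 4.3.3 fitted the 3 groups to all 13 arrays. The fit was also run on simulated data without a slide effect, so that run does not bear on the slides. The number of arrays, with 3 in ST vehicle, limits the precision. Slides were tested as a block and as a random block, since each slide was scanned once and cannot be told apart from its scan. The replicate number was checked as a pairing: same-numbered samples had correlations of -0.17 to 0.56 in their deviations from group means, over 0.1 in 8 of 11 pairs, and a pairing required all of them. The number equals the slide on 12 of 13 arrays, and arrays of different groups on 1 slide had correlations of -0.02 to 0.56, over 0.1 in 10 of 11 pairs. The slide was therefore taken as the shared unit, but only in alternative fits. The main model held no term for the slide. The members, the lists and the tests were chosen with earlier results of these data known. Named genes were all members, each list gene called, the 2 of smallest p per list in a comparison with fewer than 2 called, and the 3 genes most like Apob and Mttp. Symbols of the 10 members matched the RefSeq gene table by accession. The values of 1 gene that the rule for named genes includes are not reported here.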

Additional observations from a re-analysis of the deposited data

Results flagged for a closer look

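Of 94 sets of values within a group of 5 arrays, 2 held an array far from the others by Dixon's criterion at the 95% level, none of them a member of the apolipoprotein set, and chance flags about 1 in 20 such sets. A1cf, the partner of the Apob mRNA editing enzyme, read 1.29 on replicate 1 of ST pollutants, where the nearest array of that group read 0.81. The mean of the skeletal muscle markers was -0.89 on replicate 3 of HFHS vehicle, where the nearest array of that group read -4.08. That mean lay within the range of the ST pollutants arrays, -3.57 to -0.79. It was the other HFHS vehicle arrays that lay below every ST array. Replicate 3 is also 1 of the 3 HFHS vehicle arrays that carried acinar transcripts, and the part of either signal in the values of the members was not tested.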

How the results depend on the processing

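Among all genes, 134 were called in HFHS vehicle over ST vehicle, and the count was 45 with normexp background correction, 68 with median scaling, 55 with no filter, 84 with slide as a block, 338 with slide as a random block, 9 without slide 1, 25 with only the 2 groups fitted, 15 without the 3 acinar-high HFHS vehicle arrays, and 29 to 135 when 1 replicate was left out. For ST pollutants over ST vehicle, 192 were called, and the same settings gave 22, 48, 70, 67, 448, 13, 40, 82 and 42 to 172. Between HFHS vehicle and ST pollutants 757 were called, and the count was 292 with normexp, 323 with median scaling, 361 with no filter, 1653 with slide as a random block, 1 without slide 1, 297 without the acinar-high arrays and 348 to 691 with 1 replicate left out. With the replicate number as a block, which equals the slide on 12 of 13 arrays, the counts were 53 in HFHS vehicle over ST vehicle, 44 in ST pollutants over ST vehicle and 563 in HFHS vehicle over ST pollutants, and no member was called.

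Members called were 0 in ST pollutants over ST vehicle under every setting. For HFHS vehicle over ST vehicle they were 2 (Apoa4, Apom) with slide as a random block and 0 to 1 with a replicate left out (Apom, without replicate 2 of ST pollutants). Between HFHS vehicle and ST pollutants they were 1 (Apoc2) after quantile normalization and in the authors' deposited table, and 0 with any replicate left out. Over every probe of the members, calls numbered 1 after quantile normalization, 3 with slide as a random block (Apoa4, Apom and the other Apob probe) and 0 to 1 with a replicate left out. Fewer arrays enter the fits that leave out samples, and more genes enter the fit with no filter. Why the counts changed was not tested for any setting.

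Apoa4, Apoa1, Apom and Mttp kept their direction under all 29 settings in each comparison. Directions turned for members with differences under 0.16. In HFHS vehicle over ST pollutants, Apob was 0.0351 after quantile normalization and 0.0254 in the authors' deposited table, Apoc3 was -0.1302 with normexp and -0.1731 without the acinar-high arrays, and Apoe was 0.0034 in the authors' deposited table. In HFHS vehicle over ST vehicle, Apoa5 was 0.0538 without slide 1, Apoc2 was -0.0509 with normexp, and Apob was -0.0242 with normexp, -0.0755 as the mean of its probes and -0.0226 with the replicate block. In ST pollutants over ST vehicle, Apoa2 was 0.0063 in the authors' deposited table, Apoa5 was 0.0186 with slide as a block and 0.0546 without slide 1, and Apoe was 0.0098 after quantile normalization. With 1 replicate left out, Apoc3 lay between -0.0981 and 0.06 in HFHS vehicle over ST pollutants, Apoa2 lay between -0.2776 and 0.0119, Apoe lay between -0.2232 and 0.0058 in HFHS vehicle over ST vehicle, and Apoa2 lay between -0.1249 and 0.1499, Apoa5 lay between -0.1517 and 0.0881, Apoe lay between -0.0921 and 0.0854 in ST pollutants over ST vehicle.

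Apoa2, Apoe and Apoc3 had a smaller SD before scaling than the scaling value itself. The replicate block also ended the calls of Tm6sf2 and Lmf1 in HFHS vehicle over ST pollutants (limma adjusted p = 0.0716 for each). Both calls also ended with normexp (adjusted p = 0.4428 for Tm6sf2 and 0.4045 for Lmf1) and with median scaling (0.1601 for Tm6sf2 and 0.1512 for Lmf1). The members were well above background in 169 of 169 probe values, and the number of arrays limits the precision.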
